A study of Mus musculus with 5 samples.

Results

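Fibroblasts marked by Pi16 and Dpp4 were picked out of single-cell profiles of the mouse mammary gland by a gate on marker counts, and 736 of 6722 gated fibroblasts met it. The 6722 fibroblasts came from 18438 barcodes that passed the quality limits and from 32472 deposited barcodes. A barcode was kept with at least 500 genes, at most 15% mitochondrial counts and at least 5000 unique molecular identifiers (UMIs, each standing for 1 captured RNA molecule). A fibroblast held at least 100 UMIs of Col1a1, Col1a2, Col3a1, Dcn and Lum together per 10000, and none of Ptprc, Epcam, Pecam1 or Rgs5, which mark leukocytes, epithelium, endothelium and pericytes. A member of the Pi16 Dpp4 group then had at least 3 UMIs of Pi16 and Dpp4 together, fewer than 2 of Gdf10, fewer than 3 of Mme, Fgf10 and Scg3, and fewer than 3 of Sbsn, Krtdap and Akr1c18. These counts chose the cells, so every difference in level between the members and other fibroblasts is given as a description, with no test.

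The study profiled whole mammary glands of 3 Frmd3 knockout mice (KO1, KO2 and KO3) and 2 wild-type mice (WT1 and WT2) with 10x Genomics 3′ v3 chemistry, 1 library per mouse. Its title puts the interest in the fate of mammary epithelial cells and in Notch signalling. The labels name neither strain, age nor hormonal stage, nor the extent of the Frmd3 deletion and the cells that carry it. Frmd3 encodes a FERM domain protein, a class that links membrane proteins to the cortical cytoskeleton.

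Fibroblasts that carry Pi16 and Dpp4 are known from many mouse tissues as cells of the adventitia, the outer sheath of larger vessels, and of the fascia and interstitial septa of fat. Pi16 is a secreted or membrane-anchored peptidase inhibitor-like protein, and Dpp4 (CD26) is a surface dipeptidyl peptidase that trims chemokines and hormones. In fat these cells have been described as early mesenchymal progenitors that can give rise to preadipocytes. They are usually set against parenchymal fibroblasts that express Col15a1 and other basement membrane genes.

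The libraries held between 24197344 UMIs (KO3) and 87577099 UMIs (WT2) in total. Members numbered 253 in KO1, 115 in KO2, 105 in KO3, 139 in WT1 and 124 in WT2, with 1060916 to 3342553 UMIs per library when summed. The median member had 12893 UMIs in KO1, 15068 in KO2, 9593 in KO3, 11464 in WT1 and 14589 in WT2. No member barcode was shared between libraries, and 108 of all deposited barcodes were. KO3 stood apart before any comparison: it was the shallowest library, 18.5% of its barcodes exceeded the mitochondrial limit against 3.8% to 13.2% elsewhere, and its file header names Cell Ranger 6.1.2 where the other 4 name 6.0.2. KO1 resembled WT1 and KO2 resembled WT2 more than libraries of the same genotype resembled each other, as described further on.

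The label was set against Clec3b and Cd34, which the gate did not use. Clec3b encodes tetranectin, a plasminogen-binding protein, and Cd34 a sialomucin of progenitor and endothelial cells. Both were detected in 733 of the 736 members. Pi16 and Dpp4 were both detected in 660 members, Pi16 alone in 63 and Dpp4 alone in 13. Together they gave 3 to 171 UMIs per member, with a median of 26. The genes lie at chr17:29317680-29330593 (Pi16), chr2:62330073-62412231 (Dpp4), chr9:123150946-123157432 (Clec3b) and chr1:194938819-194961279 (Cd34) in the GRCm38 build.

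At a depth of 5000 UMIs per cell, Clec3b was found in 97.8% to 100% of members and 6.05% to 28.3% of kept cells with a Ptprc UMI. It was found in 53.1% to 76.1% of fibroblasts of an Mme gate and 93.4% to 100% of those of a Gdf10 gate. Cd34 was found in 92.7% to 99.2%, 5.65% to 27.9%, 53.1% to 79.2% and 77.6% to 83.3%. Detection of these markers thus set the members apart from the cells with a Ptprc UMI. Those cells were taken with no limit on collagen counts, so fibroblasts or doublets with a Ptprc UMI may be among them. Detection of Clec3b did not set the members apart from Gdf10 gate fibroblasts. Fibroblasts of an Sbsn gate showed Clec3b in 99.8% to 100% and Cd34 in 98% to 100%, so neither marker set the members apart from these.

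Free RNA can put UMIs into cells that do not express a gene, so detection was compared after each cell was thinned to 5000 UMIs. At that depth Pi16 was found in 94.9%, 92.2%, 91.4%, 93.5% and 91.1% of members in KO1, KO2, KO3, WT1 and WT2. Kept cells with a Ptprc UMI, whatever their collagen counts, showed it in 25.8%, 14.9%, 2.8%, 11.2% and 28.7%. Dpp4 was found in 73.3% to 89.6% of members, against 9.7% to 20.7% of those Ptprc cells. Without thinning, Pi16 was found in 95.7% to 99.2% of members and 4.84% to 37.5% of the Ptprc cells, and Dpp4 in 87.6% to 97.4% and 15.2% to 27.4%. The rule required UMIs of these genes, so the members' shares are a description. The share in Ptprc cells was lowest for Pi16 in KO3, but Dpp4 was found there in 13.3%, against 9.77% in KO2 and 9.73% in WT1. How much of these shares is free RNA, and how much is the cells' own expression or comes from fibroblasts or doublets among them, was not tested. Median depths of the Ptprc cells before thinning ran from 6976 to 8761 UMIs, below those of the members.

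Markers of other cell types were low among the members. Summed over 12 genes, leukocyte markers reached 77.5 CPM (UMIs of the gene per 1000000 UMIs summed over the library's members) in KO1, 26.5 in KO2, 170 in KO3, 243 in WT1 and 105 in WT2. Epithelial markers summed to 73.3, 222, 40.5, 194 and 184 CPM, lowest in KO3 and KO1. The endothelial sum of 125 to 153 CPM came mostly from Tek, at 84.8 to 111 CPM, and Kdr, at 12.2 to 57.1 CPM. Adipocyte markers stayed between 0 and 1.63 CPM, while 10 general fibroblast markers summed to 38171 to 79849 CPM.

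The Sbsn limit removed most of the Pi16 Dpp4 fibroblasts. In all, 3910 gated fibroblasts had at least 3 UMIs of Pi16 and Dpp4, and 22.8% of them in KO1, 15.3% in KO2, 40.5% in KO3, 29.9% in WT1 and 9.37% in WT2 were members. The Sbsn, Krtdap and Akr1c18 limit was exceeded by 59.7%, 77.5%, 41.7%, 52% and 82.3%. Sbsn and Krtdap encode secreted proteins best known from stratified epithelium, and Akr1c18 a dehydrogenase that inactivates progesterone. At this edge the 167 cells just inside, with 2 such UMIs, had Anxa3 at 961, Sema3c at 824, Cd55 at 461 and Col15a1 at 41.7 CPM, and the 163 just outside, with 3, had 975, 791, 415 and 42.6 CPM. The 1590 cells with 10 or more had more Anxa3 (1173 CPM) and Cd55 (672 CPM) and less Col15a1 (7.51 CPM). Cells just inside and just outside this limit were alike in these genes, but they differ by a single UMI, so the likeness covers the edge only. By the gate, members are the Pi16 Dpp4 cells with few UMIs of Sbsn, Krtdap and Akr1c18. Whether they and the cells beyond the limit form a single population was not tested.

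The Pi16 and Dpp4 limit met a steeper change. The 29 members with exactly 3 UMIs had Anxa3 at 190, Sema3c at 181 and Col15a1 at 508 CPM. The 66 cells just outside, with 2, had 137, 86 and 1106 CPM, and 464 cells with none had Anxa3 at 28.6 and Col15a1 at 932 CPM. Members at the low edge thus carried less of the adventitial genes and more Col15a1 than the bulk of the members.

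As a share of gated fibroblasts, members made up 11.4% in KO1 (95% exact binomial interval 10.1 to 12.8), 12.5% in KO2 (10.5 to 14.9), 14.7% in KO3 (12.2 to 17.5), 11.5% in WT1 (9.73 to 13.4) and 7.46% in WT2 (6.24 to 8.83). The intervals cover counting error only. The mean was 12.9% ± 1.67 (SD, n = 3) in knockout and 9.46% ± 2.83 (SD, n = 2) in wild type, a difference of 3.42 percentage points. KO1 lay just below WT1, so the groups overlapped narrowly. A two-sided exact permutation test of library means gave p = 0.3, and the smallest p this design allows is 0.1. With a limit of 3000 UMIs per cell the shares were 14.2%, 13.4%, 15%, 12.6% and 8.27%, the groups did not overlap and the difference of 3.78 points gave that smallest p of 0.1. With each cell thinned to 5000 UMIs before gating, the shares were 22.9%, 29.9%, 18.2%, 19.6% and 19.6% (exact permutation p = 0.6), higher in every library than without thinning. Without the Sbsn limit the shares were 37.8%, 73.6%, 28%, 29.1% and 68.4%, and the difference was -2.28 percentage points (exact permutation p = 0.9). KO2 and WT2 then held the most such cells and the other 3 libraries fewer, regardless of genotype.

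**Figure D1:**
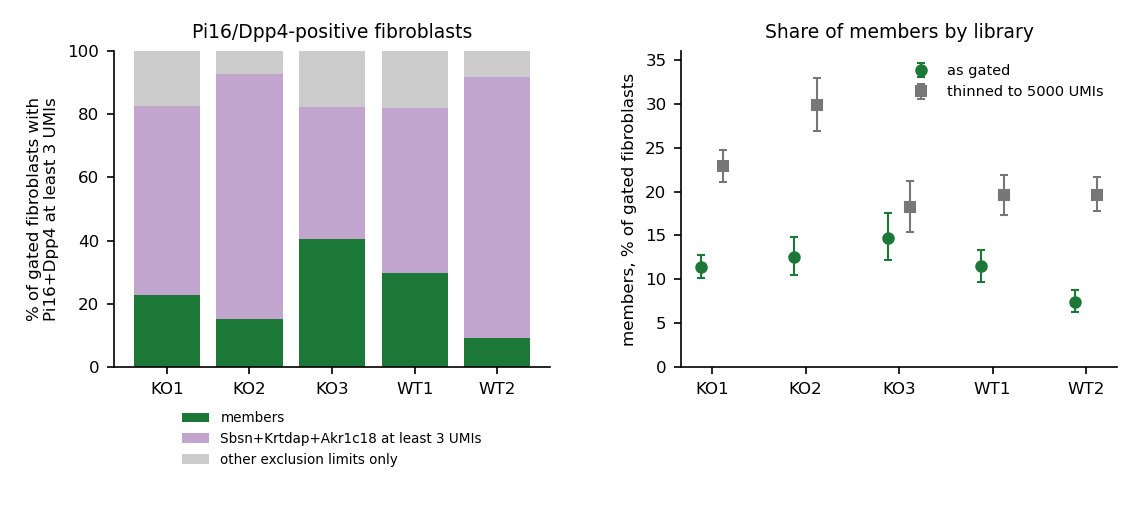
Left, gated fibroblasts with at least 3 UMIs of Pi16 and Dpp4 in each library, as bars that divide them in percent into members, cells at or above the Sbsn, Krtdap and Akr1c18 limit, and cells removed by other limits only. Right, members as a percentage of all gated fibroblasts with 95% exact binomial intervals, as gated (circles, 7.46% to 14.7%) and with each cell thinned to 5000 UMIs (squares, 18.2% to 29.9%).

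The adventitial genes were set against 3 other gates of fibroblasts in the same libraries: 1239 cells with Mme, Fgf10 or Scg3, 542 with Gdf10, and 2477 above the Sbsn limit. The other gated fibroblasts as a whole were an uneven mixture, since Mme gate cells were 23% of the gated in KO1, 41.2% in KO3 and 30.2% in WT1 but 1.53% in KO2, where they were 14 cells, and 3.31% in WT2. Anxa3, a calcium-dependent phospholipid-binding annexin, was at 917, 609, 766, 1004 and 505 CPM in members of KO1, KO2, KO3, WT1 and WT2. It was at 24.3 to 154 CPM in the Mme gate and 17.9 to 44 CPM in the Gdf10 gate, with no overlap, but at 989 to 1532 CPM in the Sbsn gate. Sema3c, a secreted semaphorin that guides axons and vessels, was at 554 to 655 CPM in members, 12 to 148 in the Mme gate, 59.3 to 158 in the Gdf10 gate and 782 to 1146 in the Sbsn gate.

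Cd55, which dissolves complement convertases on the cell surface, followed the same order at 240 to 447 CPM in members, 22.2 to 52.4 in the Mme gate, 13.3 to 35.8 in the Gdf10 gate and 553 to 758 in the Sbsn gate. Smpd3, a neutral sphingomyelinase, was at 851, 293, 445, 413 and 248 CPM in members and no higher than 23.9 CPM in the Mme and Gdf10 gates. Members and the Sbsn gate were close in Smpd3, with a mean log2 difference of -0.16. Ly6c1, a GPI-anchored surface protein, was at 1138 to 1345 CPM in members, 20.5 to 313 in the Mme gate and 369 to 736 in the Gdf10 gate. Cd248, the surface receptor endosialin, was at 501 to 663 CPM in members and 121 to 263 across those gates.

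Clec3b and Cd34 separated the gates less. Clec3b was at 1916, 2887, 1912, 1301 and 2265 CPM in members and at 1617, 1899, 1516, 1205 and 1889 CPM in the Gdf10 gate of the same libraries, higher in members each time by a mean of 0.31 on the log2 scale. Cd34 was at 1389, 817, 988, 1232 and 850 CPM in members against 183 to 440 CPM in the Mme gate and 367 to 583 in the Gdf10 gate. Pi16, chosen by the rule, was at 1644 to 2375 CPM in members and 2554 to 3859 CPM in the Sbsn gate, and Dpp4 at 350 to 527 and 467 to 612 CPM.

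Not all listed adventitial genes kept this order, Il33 and Wnt2 among those that did not. Of 25 listed at 20 CPM or more and outside the rule, 4 were higher and 1 lower than in all other gated fibroblasts of all 5 libraries. Over all genes these shares were 6.46% higher and 14.5% lower. Il33, an alarmin cytokine held in the nucleus, was at 116, 46.4, 49, 75.3 and 50 CPM in members and higher in the Gdf10 gate of all 5 libraries, at 182 to 267 CPM. Wnt2, a Wnt ligand, was at 60.8 to 93 CPM in members and 16.5 to 142 CPM in the Mme gate, where the ranges overlapped.

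Parenchymal markers were mixed. Of 16 listed, 5 were lower and 2 higher in members than in all other gated fibroblasts of all 5 libraries, and 6 lay above the Sbsn gate and below the Mme and Gdf10 gates in every library. Col15a1, a basement membrane collagen, was at 125, 89.5, 138, 164 and 159 CPM in members, 599 to 1130 in the Mme gate, 499 to 782 in the Gdf10 gate and 10.5 to 55.6 in the Sbsn gate. Igfbp7, a secreted growth factor-binding protein, was at 206 to 589 CPM in members, 785 to 2528 in the Mme gate, 1821 to 3997 in the Gdf10 gate and 69 to 130 in the Sbsn gate. Both genes had that order in every library. Col15a1 and Igfbp7 were named after their values were seen, and Igfbp7 is not on the list. Nid1, the basement membrane linker nidogen, had the opposite order, with mean log2 differences of -0.32 from the Sbsn gate, 0.59 from the Mme gate and 1.42 from the Gdf10 gate.

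**Figure D2:**
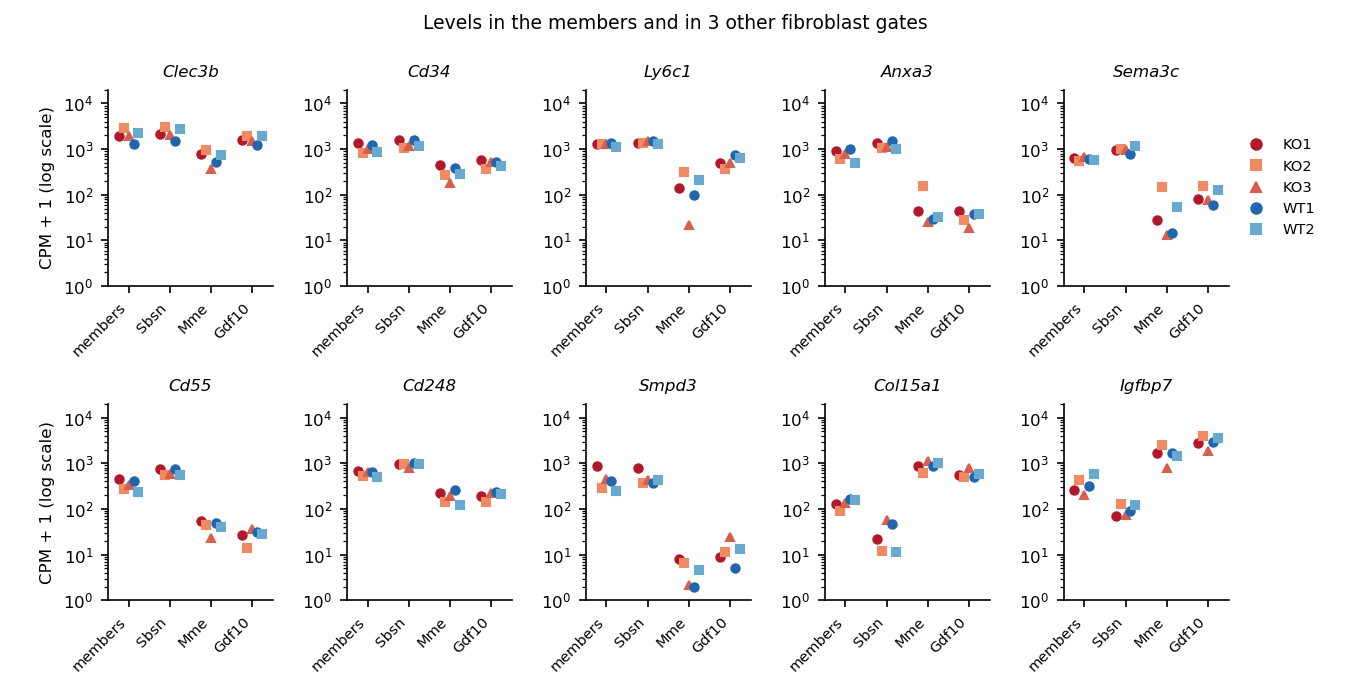
CPM plus 1 on a log axis for 10 genes in the members and in the Sbsn, Mme and Gdf10 gates, each point 1 library. Anxa3, Sema3c, Cd55 and Smpd3 separate members and the Sbsn gate from the Mme and Gdf10 gates, while Col15a1 and Igfbp7 place members between them.

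Against all other gated fibroblasts, 366 of 5665 genes at 20 CPM or more were higher in members of all 5 libraries (6.46%) and 822 were lower in all 5 (14.5%). The leading higher genes included several with secreted products. Cilp, cartilage intermediate layer protein, an extracellular matrix protein that binds TGF-beta (chr9:65265180-65280605), was at 302, 167, 112, 246 and 215 CPM in members of KO1, KO2, KO3, WT1 and WT2 and at 60.5, 12, 26.7, 50.7 and 18.1 CPM in the other gated fibroblasts. Its mean log2 difference was 2.76, with a range of 2.03 to 3.69. Myoc, the olfactomedin-family protein myocilin (chr1:162639155-162649693), was at 226, 211, 122, 218 and 166 CPM against 51.5, 36.9, 4.8, 21 and 43.1 CPM, a mean log2 difference of 2.85. When each cell was thinned to 5000 UMIs and gated again, so that more Pi16 Dpp4 cells became members, these means were 1.02 for Cilp and 1.35 for Myoc.

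Ccn5, a matricellular protein also called WISP2, was at 147, 53.6, 33.9, 114 and 236 CPM in members against 3.25 to 31.6 CPM. Dkk2, a secreted Wnt modulator, was at 29, 103, 47.1, 22 and 101 CPM against 6.63 to 34.6 CPM. Gpx3, a secreted glutathione peroxidase, was at 1198 to 1685 CPM against 278 to 835 CPM. Lox, which crosslinks collagen and elastin, was at 288, 359, 337, 232 and 608 CPM against 142 to 217 CPM. The other higher genes of this ranking included the elastic fibre genes Eln (mean log2 difference 0.83) and Fbln2 (0.67), the proteoglycan Ogn, complement C4b (1.02), the B-cell chemokine Cxcl13 (1.31) and Igfbp3 (0.87).

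On the lower side, Penk, which encodes the opioid precursor proenkephalin, was at 26, 30.4, 41.5, 38.2 and 30.4 CPM in members and 226, 81.2, 153, 255 and 89.3 CPM in the other gated fibroblasts. Enpp2, or autotaxin, which makes lysophosphatidic acid, was at 11.6 to 45.2 CPM against 23.6 to 347 CPM. Apoe, a lipid carrier, was at 138 to 373 CPM against 279 to 919 CPM, and the eosinophil chemokine Ccl11 at 142 to 302 against 187 to 589 CPM. Dmkn, a secreted epidermal protein, was at 0 to 9.78 CPM against 5.08 to 106 CPM. Its direction turned with the comparison, at a mean log2 difference of -3.97 from the Sbsn gate, 1.86 from the Mme gate and 1.94 from the Gdf10 gate.

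The comparison gate mattered more for the lower genes than for the higher ones. Of the 20 leading higher genes, 15 were higher in all 5 libraries against the Sbsn gate, 19 against the Mme gate and 15 against the Gdf10 gate. Of the 20 leading lower genes, 2 were lower in all 5 libraries against the Sbsn gate, 16 against the Mme gate and 15 against the Gdf10 gate. Enpp2, for example, had a mean log2 difference of 1.72 from the Sbsn gate and of -4.57 from the Mme gate. After thinning every cell to 5000 UMIs and gating again, 16 of the 20 higher and 18 of the 20 lower genes kept their sign in all 5 libraries.

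**Figure D3:**
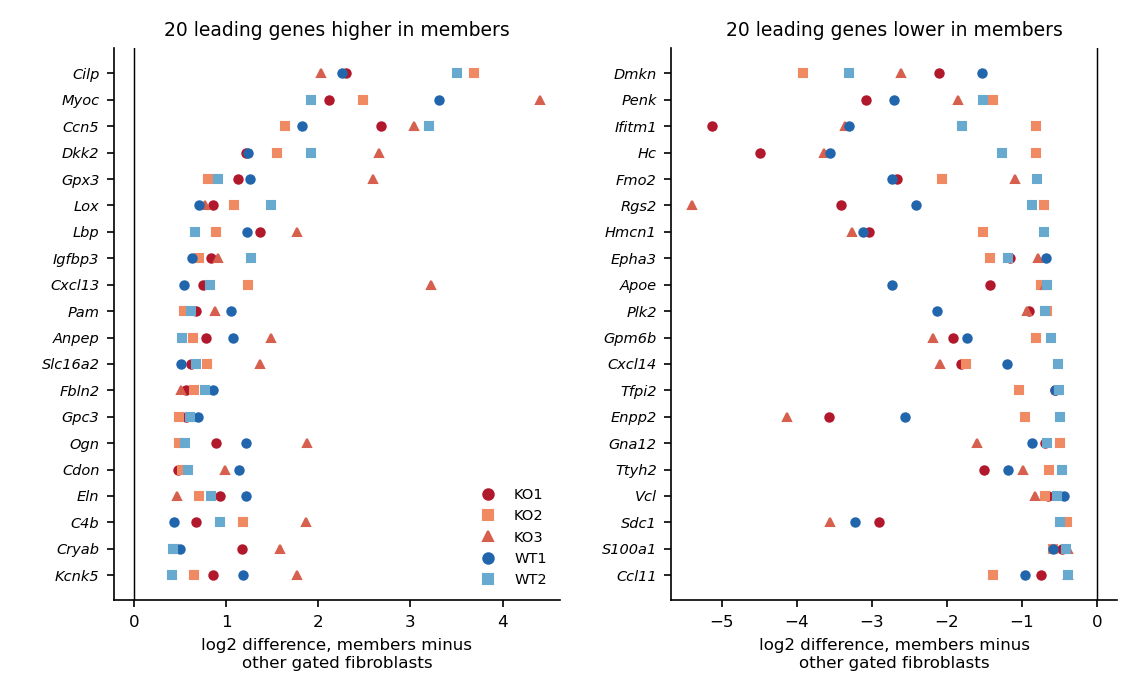
The 20 leading higher and 20 leading lower genes of members against other gated fibroblasts, as log2 differences of CPM plus 1, each point 1 library. Myoc, Cilp and Ccn5 lie furthest to the right, with mean differences of 2.85, 2.76 and 2.47, or 1.35, 1.02 and 2.42 after thinning to 5000 UMIs.

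Gene groups fixed as lists were described the same way, with the 6.46% of all genes higher and the 14.5% lower in members of all 5 libraries as the measure. Of 14 proteoglycan and hyaluronan genes at 20 CPM or more, 6 were higher and 0 lower. Ogn, the small proteoglycan osteoglycin, was at 1463 to 1861 CPM in members, 104 to 418 in the Mme gate, 395 to 633 in the Gdf10 gate and 1307 to 1850 in the Sbsn gate. Of 10 complement and acute-phase genes, 4 were higher and 0 lower. C3 was at 3442 to 4792 CPM in members, 121 to 1347 in the Mme gate and 930 to 3335 in the Gdf10 gate, and in each library it was higher in members than in either gate.

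Of 18 fibroblast transcription factors, 4 were higher and 2 lower in all 5 libraries. Creb5, a CREB-family factor, was at 748, 402, 473, 615 and 322 CPM in members, 73.4 to 133 CPM in the Mme gate and 32.8 to 101 CPM in the Gdf10 gate. Klf4, a Krüppel-like factor, was at 1833 to 2659 CPM in members against 799 to 1236 and 1152 to 1588 CPM. Timp3, a matrix-bound inhibitor of metalloproteinases, was at 648 to 1341 CPM against 72.8 to 279 and 180 to 444 CPM. For these 3 genes members were above both of those gates, and Creb5 was higher still in the Sbsn gate, at 516 to 933 CPM.

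Chemokines were mixed, with 2 of 17 higher and 4 lower. Cxcl12, which attracts lymphocytes and holds progenitors through CXCR4, was at 137 to 170 CPM in members, 241 to 473 in the Mme gate, 778 to 1454 in the Gdf10 gate and 65.9 to 145 in the Sbsn gate. Ccl2, which draws monocytes, was at 600, 2242, 722, 582 and 1105 CPM in members, highest in KO2, and higher in the Sbsn gate of each library at 818 to 4710 CPM. Among preadipocyte genes 1 of 10 was higher and 0 lower in all 5 libraries. Icam1, an adhesion molecule used to mark committed preadipocytes, was at 74.7 to 191 CPM in members, 14.4 to 49.7 in the Sbsn gate, 111 to 357 in the Mme gate and 193 to 361 in the Gdf10 gate. Lpl, lipoprotein lipase, was at 580 to 1095 CPM in members and 1226 to 2474 CPM in the Mme gate.

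The genes that led this ranking were not spread evenly over the members. Cilp had no UMI in 613 members, 1 to 14 UMIs in 82 and 15 or more in 41, a grouping set after its values were seen. The 41 cells came from all libraries, with 20 in KO1, 5 in KO2, 3 in KO3, 8 in WT1 and 5 in WT2. At 5000 UMIs, Cilp was found in 9.5% to 15.4% of members and in 0% to 3.0% of the Ptprc cells, and without thinning in 13.3% to 22.6% and 0.514% to 4.33%. Myoc reached 15 UMIs in 46 members, and 11 of these also reached it for Cilp.

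Summed over libraries, the 41 Cilp-rich members had less of the adventitial genes than the 613 without Cilp. Sema3c was at 254 against 688 CPM, Cd55 at 121 against 412 CPM, Anxa3 at 542 against 848 CPM and Pi16 at 1445 against 2160 CPM. They had more Igf1, a growth factor, at 1503 against 373 CPM, more Ccn5 at 645 against 46.7 CPM, more Myoc at 616 against 125 CPM and more Col15a1 at 343 against 98.6 CPM. Within the gate, then, a small Cilp-rich set sat beside a larger set richer in Sema3c and Cd55. No test was made of this division, and 20 of the 41 cells are from 1 mouse.

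Interferon response was also uneven among cells. A set of 5 interferon-induced genes gave 10 or more UMIs in 131 members and none in 232, again with a limit chosen after the values were seen. Members at or above 10 were 8.7% of those in KO1, 21.7% in KO2, 23.8% in KO3, 18% in WT1 and 27.4% in WT2, an order that does not separate the genotypes. Mki67 or Top2a, which mark cycling cells, had a UMI in 21 members.

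Gene groups were then read across the 5 libraries. Across 9234 genes passing the expression filter, the log levels of members correlated at r = 0.975 between KO1 and WT1 and at 0.966 between KO2 and WT2. The other 8 pairs lay between 0.923 and 0.950. These are correlations across genes of libraries, and genes are not independent replicates. KO3 took part in the 4 lowest of them.

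KO2 and WT2 were the libraries with the most matrix RNA. Col1a1, a chain of type I collagen, was at 3884 CPM in KO1, 13389 in KO2, 5179 in KO3, 2921 in WT1 and 15232 in WT2. Sparc, a matricellular collagen-binding protein, was at 4764, 14912, 7788, 3221 and 15166 CPM. Both of these libraries were above the other 3 for 12 of 16 listed collagens and collagen partners and for 10 of 19 elastic fibre genes, against 8.4% of all genes. After TMM scaling, which corrects for composition, these counts were 13 and 13, against 15.8% of all genes.

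The growth factor Igf1 shared this pattern at 317, 986, 441, 254 and 873 CPM, as did the Wnt modulator Sfrp2 at 314, 1239, 385, 193 and 1860 CPM. Hmox1, the haem oxygenase induced by oxidative stress, was at 260, 1006, 126, 286 and 1045 CPM. Eln, which encodes the elastin precursor, was at 1089, 1988, 361, 839 and 2508 CPM, highest in the same pair and lowest in KO3. None of these followed genotype.

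KO1 and WT1 led for other genes. Tgfbr2, the type II TGF-beta receptor, was at 861, 300, 385, 829 and 345 CPM. Efhd1, a mitochondrial calcium-binding protein, was at 149, 58, 70.7, 168 and 54.9 CPM. Pgr, the progesterone receptor, was at 28.4, 4.42, 5.66, 29 and 1.09 CPM, and Greb1, an oestrogen-regulated gene, at 30.8, 2.76, 2.83, 31.9 and 1.63 CPM. Esr1, the oestrogen receptor, did not share this at 73.3, 100, 116, 78.8 and 104 CPM. Efhd1, Pgr and Greb1 were named after their values were seen. Over all genes, 28.4% had both of these libraries above the other 3 in CPM and 7.2% had both below. After TMM scaling these shares were 15.3% and 14.5%, so the split depends on the scaling. For KO2 and WT2 the shares below the rest were 26.3% and 15.6%.

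KO3 was set apart by heat shock, immediate-early and interferon response genes. Dnajb1, an HSP40 co-chaperone, was at 96.9, 158, 850, 97.3 and 163 CPM, and Bag3, a co-chaperone of HSP70, at 214, 172, 585, 217 and 239 CPM. Egr1, an immediate-early transcription factor, was at 470, 413, 2494, 571 and 575 CPM. Bst2, the interferon-induced tetherin, was at 286, 324, 526, 302 and 343 CPM. KO3 was the highest library for 13 of 15 heat shock chaperones, 13 of 20 immediate-early genes (14 after TMM scaling) and 18 of 29 interferon response genes, against 26.8% of all genes (29.3% after TMM scaling). It was the lowest for 28.4% of all genes (29% after TMM scaling). Handling of the tissue was not recorded in the labels, and its part in these values was not tested.

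**Figure D4:**
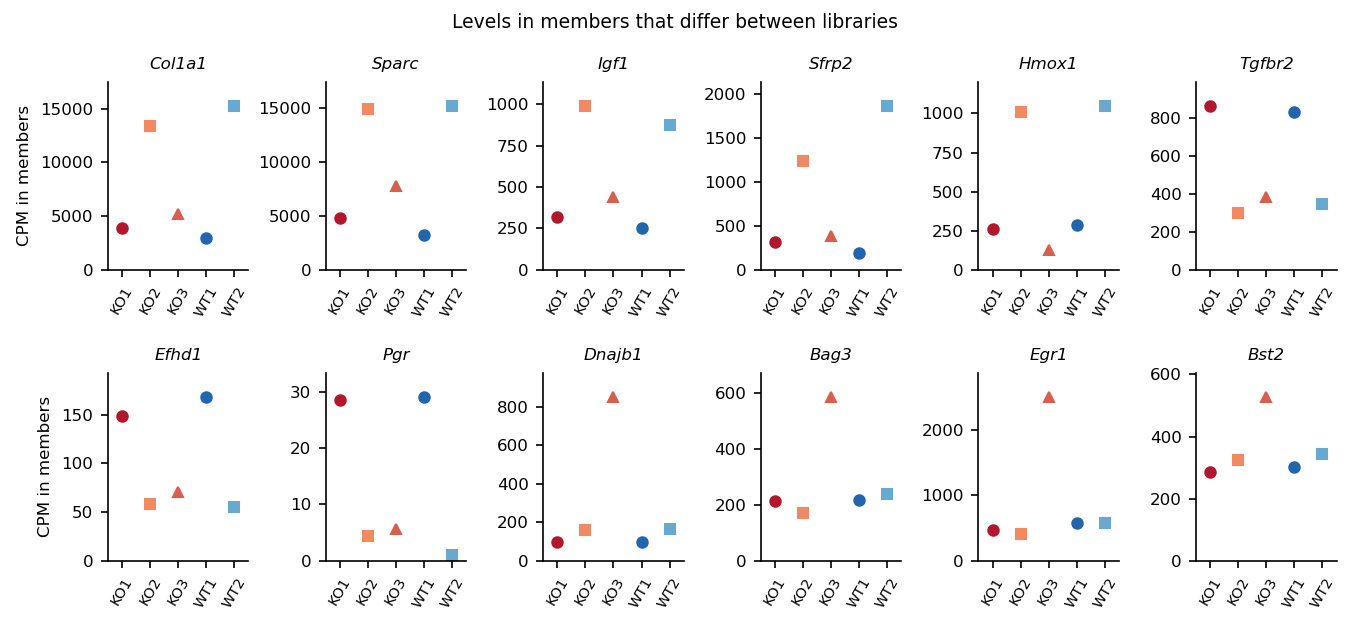
CPM in members for 12 genes, with 1 point per library and a linear axis from 0 in each panel. Col1a1, Sparc, Igf1, Sfrp2 and Hmox1 are highest in KO2 and WT2, Tgfbr2, Efhd1 and Pgr in KO1 and WT1, and Dnajb1, Bag3, Egr1 and Bst2 in KO3.

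The comparison of genotypes asked whether loss of Frmd3 altered this fibroblast group. Frmd3 itself (chr4:74013442-74202214) was near the limit of detection, with 1 UMI in KO1, 1 in KO2, 2 in KO3, 0 in WT1 and 3 in WT2 over all members. These are at or under the 3 UMIs taken as the floor, which stand for 0.898 to 2.83 CPM, so Frmd3 was below the filter and was not tested. Since the removed part of the gene is not given, its 3′ counts do not check the genotype labels. The related FERM gene Frmd6, by contrast, was at 174, 120, 242, 196 and 160 CPM. Of 14 tested FERM domain relatives, 9 had higher and 5 lower estimates in knockout, with a median log2 difference of 0.04. Over all 9234 genes tested, 4763 had higher and 4471 lower estimates.

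No gene passed the genotype test. Of 9234 genes, 0 had an adjusted p under 0.05 in edgeR's quasi-likelihood test, which is 0% of those tested. At an unadjusted p under 0.05 there were 125, and DESeq2 gave 0 calls and 75 such genes. The library ranges of the genotypes did not overlap for 507 genes higher in knockout (5.49%) and 590 lower (6.39%), or for 7.37% and 6.27% after TMM scaling. On simulated data of this design the test recovered 20.8% of 2-fold and 93.9% of 4-fold changes over 8953 genes. Changes near 2-fold would thus mostly be missed. That simulation drew each library independently, while KO1 resembled WT1 and KO2 resembled WT2 in the data. Its rates may therefore not hold for the real libraries. The genes named next had the smallest unadjusted p among those with ranges that did not overlap, which the choice required. Their adjusted p was 0.99989 in edgeR, and none is a call. Without the Sbsn limit all 16 kept their sign and 13 were smaller, with Crispld2 at -0.47, Ppp2r3a at 0.41 and Crebrf at 0.18.

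Among the higher estimates, Plk2, a stress-induced kinase, was at 31.4, 25.4 and 40.5 CPM in KO1, KO2 and KO3 and at 16.8 and 14.1 CPM in WT1 and WT2, a log2 difference of 1.07 ± 0.30 (standard error). Tnfaip3, the ubiquitin-editing enzyme A20, was at 34.4, 26, 45.2, 17.4 and 16.3 CPM. Nfkbia, the inhibitor that retains NF-kappaB in the cytoplasm, was at 445, 537, 801, 338 and 330 CPM. Pde4b, which degrades cyclic AMP, was at 19.7, 26.5, 43.4, 10.4 and 11.4 CPM, a log2 difference of 1.42 ± 0.41. In these 4 genes KO3 was the highest library, as in the heat shock list. Atp1b1, a subunit of the sodium pump, was at 41.9, 53.6, 29.2, 16.8 and 26.1 CPM, with KO2 highest. Crebrf and Ppp2r3a completed the list at log2 differences of 0.65 ± 0.24 and 0.92 ± 0.33. Crebrf was at 57.4, 53.1, 75.4, 42.9 and 37 CPM and Ppp2r3a at 27.5, 17.1, 30.2, 14.5 and 12 CPM, again with KO3 highest.

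Jag1, a ligand of Notch receptors (chr2:137081456-137116644), was among these genes. It was at 28.4, 34.3 and 33.9 CPM in KO1, KO2 and KO3 and at 16.2 and 15.8 CPM in WT1 and WT2. Its log2 difference was 1.03 ± 0.29, with an unadjusted p of 0.0053 and an adjusted p of 0.99989 in edgeR. Without the Sbsn limit the log2 difference was 0.43.

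Of 24 listed Notch genes 12 were tested, 6 with higher and 6 with lower estimates, with a median log2 difference of 0.07 against 0.01 over all genes. The receptor Notch2 was at 67.6, 43.7, 45.2, 77 and 40.2 CPM and Notch1 at 3.77 to 6.95 CPM. Rbpj, the transcription factor on which Notch signalling converges, was at 177, 127, 189, 197 and 102 CPM. The target gene Hes1 was at 133, 89, 132, 113 and 102 CPM, while the targets Hey1 and Heyl were at 0 to 0.598 and 0 to 1.63 CPM. Rbpj and Notch2 were lowest in KO2 and WT2, and the genotypes overlapped for Notch1, Notch2, Rbpj and Hes1. Jag1 was the 1 tested gene of the 12 whose ranges did not overlap in CPM, against 5.49% of all genes higher in knockout. After TMM scaling there were 3, against 7.37% of all genes, with the co-activator Maml2 (log2 difference 0.61 ± 0.35) and the sheddase Adam10 (0.32 ± 0.23) added, each higher in knockout.

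On the lower side, Crispld2, a secreted glycoprotein (chr8:119992438-120052793), was at 60.4, 41.4 and 39.6 CPM in KO1, KO2 and KO3 and at 84.6 and 122 CPM in WT1 and WT2, a log2 difference of -1.11 ± 0.27. Enpp2 was at 15.3, 11.6, 18.9, 45.2 and 27.2 CPM, a log2 difference of -1.23 ± 0.30. Cpxm2, a carboxypeptidase-like secreted protein, was at 14.7, 11.6, 5.66, 22 and 56.5 CPM, a log2 difference of -1.81 ± 0.49. WT2 supplied most of the Cpxm2 difference, which was -0.84 on the log2 scale without WT2. For Enpp2 the log2 difference was -0.94 without WT1, its highest library. Nedd9, an adhesion scaffold protein, was at 23.9, 14.4, 11.3, 38.8 and 31.5 CPM. Tmem176a, a membrane protein of the MS4A-like family, was at 9.87, 18.2, 19.8, 31.3 and 37.5 CPM.

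The remaining genes on that side belong to antigen presentation by MHC class I. H2-D1, a class I heavy chain, was at 731, 820 and 632 CPM in KO1, KO2 and KO3 and at 1735 and 889 CPM in WT1 and WT2, a log2 difference of -0.78 ± 0.27. H2-Q4, a non-classical heavy chain, was at 64.9, 83.4, 86.7, 169 and 108 CPM, and Tap2, which carries peptides into the endoplasmic reticulum, at 32.6, 31.5, 19.8, 70.1 and 41.3 CPM. B2m, the shared light chain, was at 1140, 1461, 1186, 2667 and 1591 CPM. WT1 was the highest library in each, and WT2 lay just above the knockouts. Class I heavy chains are near-identical copies, so counts of single H2 genes are uncertain.

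As a list, all 18 MHC class I and peptide-processing genes had lower estimates in knockout, against 4471 of all 9234 genes. Their median log2 difference was -0.77. None was called, 9 had an unadjusted p under 0.05, and for 8 the ranges did not overlap (9 after TMM scaling), against 6.39% of all genes. This rests largely on WT1: without it the median was -0.25, and without WT2 it was -1.07. H2-K1, for instance, was at 639, 601 and 802 CPM in the knockouts, 682 CPM in WT2 and 1841 CPM in WT1. All 5 tested leukocyte markers also had lower estimates in knockout, with a median of -0.98. Their sums overlapped between genotypes, highest in WT1 at 243 CPM, with KO3 at 170 CPM above WT2 at 105 CPM. After the 82 members with a leukocyte UMI were left out, the log2 difference was -0.76 for H2-D1, -0.75 for H2-Q4 and -0.81 for Tap2. With them it had been -0.78, -0.78 and -0.91. Whether free leukocyte RNA has a part in these values was not tested.

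**Figure D5:**
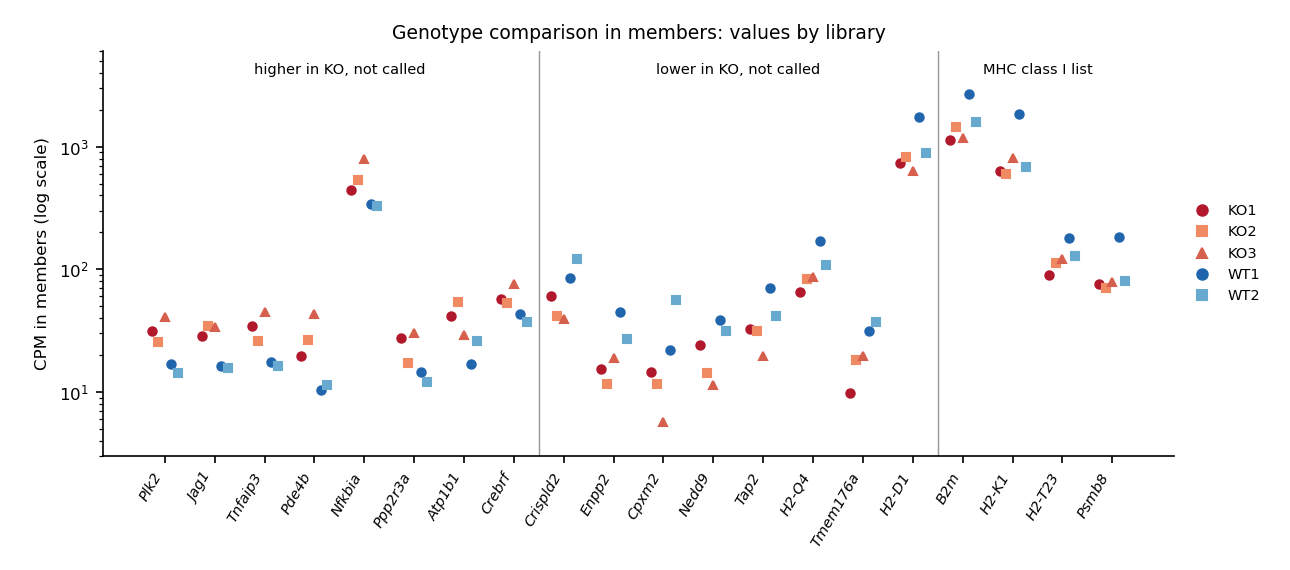
CPM in members on a log axis for the 16 genes named in the genotype comparison and 4 further MHC class I genes, 1 point per library. Jag1 lies at 28.4 to 34.3 CPM in the 3 knockouts and at 16.2 and 15.8 CPM in the wild types, and WT1 is the highest point in all MHC genes shown.

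Other lists were less one-sided or followed 1 library, and none held a call. For comparison, 4763 of all 9234 genes had higher and 4471 lower estimates in knockout. All 15 heat shock chaperones had higher estimates in knockout with a median of 0.58, but without KO3 the median was -0.03. Of 20 immediate-early genes 14 were higher with a median of 0.18, which was -0.13 without KO3. Interferon response genes split 12 higher and 17 lower with a median of -0.10, and this became -0.49 without KO3 and 0.15 without KO1.

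The adventitial markers themselves showed small differences between genotypes. Of 27 tested 22 had higher estimates in knockout, against 4763 of all 9234 genes. The median was 0.11, and 0 had ranges that did not overlap in CPM. After TMM scaling 2 of the 27 did not overlap, with knockout higher, against 7.37% of all genes. Cd34 differed by 0.06 ± 0.24, Clec3b by 0.34 ± 0.35, Anxa3 by 0.07 ± 0.27 and Sema3c by 0.08 ± 0.20 on the log2 scale. Each estimate was smaller than its standard error. Pi16 and Dpp4, the genes of the rule, differed by 0.02 ± 0.27 and -0.01 ± 0.29.

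Of 12 complement and acute-phase genes tested, 10 had estimates below 0, against 4471 of all 9234 genes, with a median of -0.22. For 5 of the 12 the ranges did not overlap with knockout lower, against 6.39% of all genes, and for 3 after TMM scaling, against 6.27%. C3, the central complement component, was at 4026, 3442, 3661, 4792 and 3494 CPM, where WT2 fell within the knockouts. C4b was at 436, 610, 713, 832 and 831 CPM, with both wild types above the 3 knockouts. Collagens split 10 higher and 6 lower with a median of 0.06, which was 0.55 without WT2, -0.31 without WT1 and -0.24 without KO2.

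Whether the genotype difference in the members was unlike that in other gated fibroblasts was tested as an interaction, with library as a block. Of 12052 genes 0 passed at an adjusted p under 0.05 in edgeR (0%), and 198 had an unadjusted p under 0.05. On simulated counts it recovered 6% of 2-fold and 52% of 4-fold differences over 9234 genes. The simulation drew members and other fibroblasts of a library independently. These rates may therefore not hold for the real libraries, where both come from the same mouse. Il1rl1, the receptor of IL-33, had the smallest p on the higher side. It was at 24.2, 47 and 81.1 CPM in members of KO1, KO2 and KO3 and 9.85 and 21.7 CPM in WT1 and WT2, against 29.5, 69.2, 120, 20.9 and 71.6 CPM in the other gated fibroblasts. The interaction was 1.04 ± 0.24 on the log2 scale, with an adjusted p of 1 in edgeR. In members the groups were separated by a narrow gap between KO1 and WT2, and in the other fibroblasts WT2 lay above KO1 and KO2.

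The other genes ranked by this test were low. Sntg1, a syntrophin, was at 3.48 to 12 CPM in members, and Tor3a, an ATPase of the endoplasmic reticulum, at 20.1 to 36.8 CPM. On the lower side, Itga1, the alpha chain of a collagen-binding integrin, was at 8.68, 4.97, 11.3, 16.8 and 19 CPM in members and at 20.8, 15.7, 38.1, 21.3 and 10.7 CPM in other gated fibroblasts. Its interaction was -1.72 ± 0.42, also with an adjusted p of 1 in edgeR. Tbc1d16 was at 3.32 to 14.1 CPM in members, and Enpp1 had 1, 1, 0, 12 and 8 UMIs, too few to place.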

How the data were processed

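Whole mammary glands of 3 Frmd3 knockout and 2 wild-type mice gave 5 libraries, 1 per mouse. The authors deposited whole-number UMI counts per gene and barcode, made with Cell Ranger 6.0.2 (6.1.2 for KO3) per the file headers, on mm10 per the submitters' processing notes. How barcodes were called as cells is not stated there. The gate was applied to these counts, and no doublet caller was run. Member UMIs were summed per library and tested with edgeR 4.0.16 (R 4.3.3; filterByExpr, TMM, quasi-likelihood F test, Benjamini-Hochberg, threshold 0.05), with both genotypes in the fit and no covariate. The standard error is the log2 difference divided by the square root of F. CPM printed for a library is UMIs per 1000000 of its member UMIs with no further scaling, and fitted differences carry TMM factors of 0.928 to 1.09. Log2 differences between gates use CPM plus 1. Shares were compared with SciPy 1.17.1, and DESeq2 1.42.0 was an alternative. Scripts were tested on simulated counts. Positions are from GENCODE mouse release 21. The 38 symbols that occur more than 1 time among 32285 genes were not named.

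Genes named by genotype had at least 20 CPM, library ranges that do not overlap and, with no call, the 8 smallest unadjusted p per direction, gene models without a name left out. Interaction genes were the 3 smallest per direction, and genes by level the 20 per direction with the largest smallest difference over the libraries, at 50 CPM or more. Lists gave up to 8 members by level, and the adventitial, Frmd3 and Notch lists any member. Members and lists were chosen with earlier results of these data known.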

Additional observations from a re-analysis of the deposited data

How the results depend on the processing

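The genotype comparison gave 0 calls in edgeR with DESeq2 size factors, in DESeq2, and under each other limit on depth, mitochondrial share, Pi16 and Dpp4 counts or leukocyte UMIs that was tried. Without a filter on low counts there were 6 calls, 2 higher and 4 lower, of 17153 genes, Crispld2 (adjusted p = 0.0406 in edgeR) and Cpxm2 (0.000982) among them. The cause was not tested. Leaving out each library gave 0 to 1 calls, the 1 without WT1 being a gene model without a name. The interaction gave 0 calls under each alternative run. The share difference stayed positive except without the Sbsn limit, an alternative chosen after seeing the data, where it was -2.28 percentage points. Leaving out each library gave 1.42 to 5.43 points. Medians of the 24 pathway lists kept their sign with DESeq2 size factors, and 3 (without WT1) to 9 (without WT2) of 24 took the other sign when 1 library was left out.

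The replicate numbers in the labels were tried as a replicate block over KO1, WT1, KO2 and WT2, with KO3 unpaired. Alone in its block, KO3 adds nothing to the genotype estimate of that fit. The estimate rests on the 2 pairs, which leave little to measure spread from. There were then 30 calls, 10 higher and 20 lower, against 0, and 6 of 24 list medians took the other sign. Called genes included Nfkbia (adjusted p = 0.0396 in edgeR), Atp1b1 (0.00264), Enpp2 (0.00209) and Tmem176a (0.00692). Deviations from group means correlated at r = 0.40 for KO1 with WT1 and 0.37 for KO2 with WT2 across genes. The deviations of WT1 and WT2 are mirror images by construction (r = -1), so these values are not independent of each other. The labels do not say that a number marks a shared litter, day or batch, and only 2 pairs exist, so the samples share only a number.

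Depth limits the low genes most: KO3 had 105 members and the fewest UMIs. With 2 wild-type mice, a permutation of single values cannot reach p = 0.05.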
